A study of Homo sapiens with 16 samples.

Results

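The 39 genes described here are the enzymes of glycolysis, the transporters and kinases that set its flow, and genes that cells switch on when oxygen is short. They were chosen by name from these pathways, and all 39 were found among the 57736 genes of the deposited table and passed the filter on low counts, so each is accounted for. They fall into 17 glycolytic enzymes and lactate dehydrogenases, 4 glucose and lactate transporters, 4 kinases that switch the use of pyruvate or of fructose phosphate, 12 targets of the hypoxia-inducible factors (HIF) outside glycolysis, and the 2 HIF alpha subunits HIF1A and EPAS1.

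Glycolysis splits glucose into pyruvate in the cytosol, and lactate dehydrogenase turns pyruvate into lactate when it is not burnt in mitochondria. Stem cells and dividing progenitors are known for a high use of glycolysis, and neurons for leaning on oxidative metabolism. In low oxygen the HIF alpha subunits escape the prolyl hydroxylases (EGLN1 and EGLN3 among them), pair with ARNT and switch on many of the enzymes as well as genes of vessel growth, pH control, mitophagy and collagen hydroxylation. HIF alpha activity is set mainly at the level of the protein, so the mRNA of a subunit is not a measure of it.

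The samples were cultures of H9, an established human embryonic stem cell line, differentiated towards cortical neurons by dual SMAD inhibition and taken on D0, D12, D30 and D70. At each stage 2 control libraries (solvent, DMSO) and 2 TMG libraries were sequenced, 16 in all. TMG is Thiamet-G, given at 40 µM, an inhibitor of O-GlcNAcase that raises O-GlcNAc on proteins. Every group derives from that single cell line, and the methods name 2 biological replicates. In the tests of counts, the p-values thus measure the spread between cultures of a group. That spread is pooled over the 8 groups of stage and arm and taken as alike in each. In the labels, the treatment tag goes against the title for 8 of the 16 libraries, reading control for replicate 1 and TMG for replicate 2 in both arms. Groups were taken from the titles, which the column names match, and every TMG value below rests on that reading. The replicate number, and so the tag, also divides the D12 libraries by enzyme level and the D70 libraries by stromal markers, as given below.

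The libraries held 10334908 to 19836878 counts, of which the 39 genes took 0.427% to 1.18%. Levels are given as CPM, each count as a share of its library after TMM scaling. The summed stem cell markers stood at 3550 to 4090 CPM on D0 and at 8.94 to 15.9 CPM on D70. Cell makeup differed between cultures of a stage. The 7 stromal markers (collagens I and III, LUM, DCN, TWIST1, POSTN) summed to 7330 and 45300 CPM in the D70 controls, 3680 and 59600 CPM in the D70 TMG libraries, and 29800 CPM in D30 TMG replicate 2 against 4340 to 5600 CPM in the other D30 libraries. The 5 pigment epithelium and choroid plexus markers summed to 10100 and 1390 CPM in the D70 controls and to 3120 and 3.42 CPM with TMG, and the 9 neuronal markers to 1220, 606, 1270 and 225 CPM in the same order. In such bulk samples, fewer cells of a type and less RNA per cell cannot be told apart.

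Libraries also stood apart among the 39 genes themselves. On D0, control replicate 2 was the lowest of the 4 libraries for 15 of 17 enzymes and for 28 of 39 genes, against 32.6% of all genes tested. In that library EGLN3 stood at 130 CPM against 29.7 to 39.5 CPM in the other 3, ADM at 72.5 against 21.6 to 38.1, and NDRG1 at 14.5 against 3.65 to 5.36. On D12 both replicate 1 libraries lay below both replicate 2 libraries for 14 of 17 enzymes and 24 of 39 genes, against 21.5% of all genes tested.

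The levels of the enzymes and of the HIF targets outside glycolysis are described first, library by library. The median enzyme, as log2 CPM minus its mean over libraries, stood at 0.20 to 0.70 on D0. On D12 it was at -0.80 and -0.70 in the replicate 1 libraries and at 0.08 and -0.02 in replicate 2, on D30 between -0.66 and -0.38, and in the D70 controls at 0.63 and 0.85. The median HIF target was highest in the D70 libraries, at 0.44 to 1.26, and lay between -0.64 and -0.39 on D0 and between -0.50 and 0.14 on D12. In the controls 12 of 17 enzymes had their highest mean on D70 and 4 on D0, and 10 had their lowest on D30. Of the 12 HIF targets, 10 had their highest control mean on D70 and 6 their lowest on D0. With TMG, 12 of 17 enzymes had their highest mean on D0 and 2 on D70, and 7 of 12 HIF targets had theirs on D70. These counts rank means of 2 libraries, were not taken over all genes, and include close ranks. ENO1, for example, had control means of 957 CPM on D70 and 952 CPM on D0. The D0 control means include replicate 2, the lowest D0 library for 15 of 17 enzymes.

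**Figure D1:**
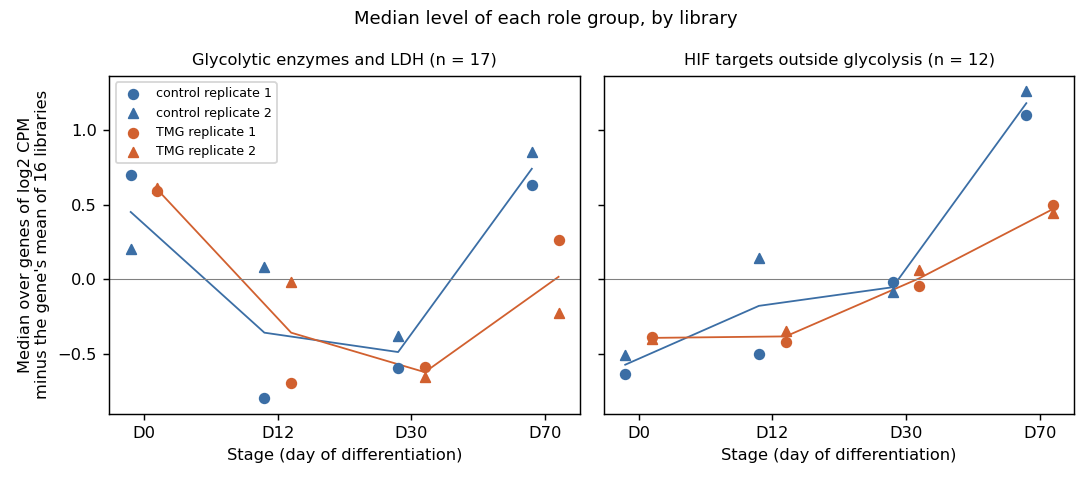
Median level of 17 glycolytic enzymes (left) and 12 HIF targets outside glycolysis (right) in each of the 16 libraries, as log2 CPM minus the gene's mean over all libraries, by stage; symbols are libraries and lines join the means of 2. The enzymes stood at 0.63 and 0.85 in the D70 controls and at 0.26 and -0.23 with TMG, and the HIF targets at 1.10 and 1.26 against 0.50 and 0.44.

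The first comparison asked how these genes differ between stem cells and D12 neural progenitors, in the controls. Of 17 enzymes 5 fell on D12, 0 rose and 15 had a negative change. Their median log2 fold change was -0.78 against 0.00 over all genes tested. The size of the gap differed by library: the median enzyme level stood at 0.70 and 0.20 in D0 control replicates 1 and 2. In the D12 controls it stood at -0.80 and 0.08 in the same order. Among all 39 genes 3 rose, against a background of 6.97% of genes tested, and 7 fell, against 9.71% (edgeR quasi-likelihood test, false discovery rate 5%). HIF targets moved both ways, with 2 of 12 up, 1 down and a median of 0.36. The 6 markers of dividing cells summed to 1550 and 1430 CPM on D0 and 784 and 653 CPM on D12, and the stem cell markers to 3920 and 3550 and then 538 and 608 CPM. Their part in the enzyme values was not tested.

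GAPDH, the dehydrogenase in the middle of the pathway, stood at 1750 and 1740 CPM in the D0 controls and at 534 and 1030 CPM in the D12 controls. The groups did not overlap, and the log2 fold change was -1.16 ± 0.33 (SE, n = 2 per group, edgeR adjusted p = 0.0369). HK1, the hexokinase that traps glucose, went from 219 and 213 to 78.0 and 105 CPM (-1.24 ± 0.30, edgeR adjusted p = 0.0205). PGAM1, the phosphoglycerate mutase, went from 448 and 330 to 105 and 228 CPM (-1.23 ± 0.33, edgeR adjusted p = 0.0297). For both, every D12 control lay under every D0 control. ALDOC, the aldolase form best known from brain, was at 35.2 and 26.2 CPM on D0 and 6.04 and 10.1 CPM on D12 (-1.93 ± 0.59, edgeR adjusted p = 0.0473). LDHB, the lactate dehydrogenase subunit that favours lactate use, fell by 1.08 ± 0.28 (edgeR adjusted p = 0.0269). Of the other 12 enzymes, 10 had negative changes that did not pass the test, and ENO2 and PKM had positive ones (0.92 and 0.80).

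SLC16A1, a monocarboxylate transporter that carries lactate and pyruvate, was at 651 and 397 CPM on D0 and at 131 and 147 CPM on D12, a change of -1.91 ± 0.37 (edgeR adjusted p = 0.00756). It was the transporter that fell; SLC2A1, SLC2A3 and SLC16A3 overlapped between the stages. Of the HIF targets, BNIP3L, a mitophagy receptor, rose from 62.8 and 44.2 to 81.4 and 99.9 CPM (0.76 ± 0.19, edgeR adjusted p = 0.0227), and KDM3A, a histone demethylase, rose by 0.89 ± 0.24 (edgeR adjusted p = 0.0305). ADM, which encodes the vasodilator adrenomedullin, fell by 1.63 ± 0.45 (edgeR adjusted p = 0.0331), with control replicate 2 high on D0 as given above. EPAS1, the HIF-2 alpha subunit, rose from 3.03 and 3.29 to 11.3 and 13.1 CPM (1.95 ± 0.50, edgeR adjusted p = 0.0246). The 10 calls of this comparison became 1 to 3 when any one of the 4 libraries was left out, 1 without D0 control replicate 2, 2 without D0 control replicate 1 or D12 control replicate 1, and 3 without D12 control replicate 2. All genes called fell too, from 16.7% to between 3.96% and 6.96%.

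Between D12 and D30 in the controls, edgeR called 0 of 39 genes, with a background of 1.91% up and 1.69% down. At an unadjusted p under 0.05 there were 9, against 20.4% of all genes. DESeq2 called 5, namely ALDOC, BNIP3L and P4HA1 up and EGLN3 and SLC2A1 down, against 12.7% of genes. SLC2A1, the main glucose transporter of barrier tissues, stood at 210 and 395 CPM on D12 and 103 and 89.2 CPM on D30 without overlap (-1.65 ± 0.51, edgeR adjusted p = 0.103). P4HA1, the alpha subunit of the collagen prolyl hydroxylase, stood at 61.7 and 152 CPM and then at 359 and 218 CPM (1.44 ± 0.43, edgeR adjusted p = 0.0958). The median was -0.36 for enzymes and 0.38 for HIF targets.

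From D30 to D70 in the controls, 5 genes rose and 0 fell, against a background of 0.305% of genes up and 0.0784% down. They were EPAS1, SLC2A1 and the HIF targets VEGFA, CA9 and EGLN1. At an unadjusted p under 0.05 there were 25 genes, all higher on D70, against 10.8% of all genes in that direction. In 28 of 39 genes both D70 controls lay above both D30 controls, against 24.0% of all genes.

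EPAS1 (chr2:46520806-46613836, GRCh37) stood at 7.33 and 11.7 CPM on D30 and at 145 and 69.4 CPM on D70. Its log2 fold change was 3.48 ± 0.51 (edgeR adjusted p = 0.0272). HIF1A, the other alpha subunit, stood at 144 and 132 CPM and then at 127 and 159 CPM, overlapping (0.05 ± 0.17, edgeR adjusted p = 0.896). SLC2A1 (chr1:43391024-43424564) went from 103 and 89.2 to 739 and 996 CPM (3.17 ± 0.54, edgeR adjusted p = 0.0423). VEGFA (chr6:43737921-43754224), the vessel growth factor, went from 54.5 and 102 to 269 and 487 CPM (2.27 ± 0.34, edgeR adjusted p = 0.0272). For EPAS1, SLC2A1 and VEGFA both D70 values lay above both D30 values. EGLN1 (chr1:231499497-231558033), the prolyl hydroxylase that marks HIF alpha for destruction and is itself a HIF target, went from 43.6 and 40.5 to 106 and 95.7 CPM (1.26 ± 0.21, edgeR adjusted p = 0.0407). CA9 (chr9:35673925-35681156), a cell-surface carbonic anhydrase, rested on few reads before D70: 3 and 6 counts in the D30 controls, then 93 and 116 counts in the D70 controls. Its level went from 0.282 and 0.301 to 5.98 and 9.34 CPM, and its fitted change of 4.67 ± 0.79 (edgeR adjusted p = 0.0423) depends on the prior count.

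**Figure D2:**
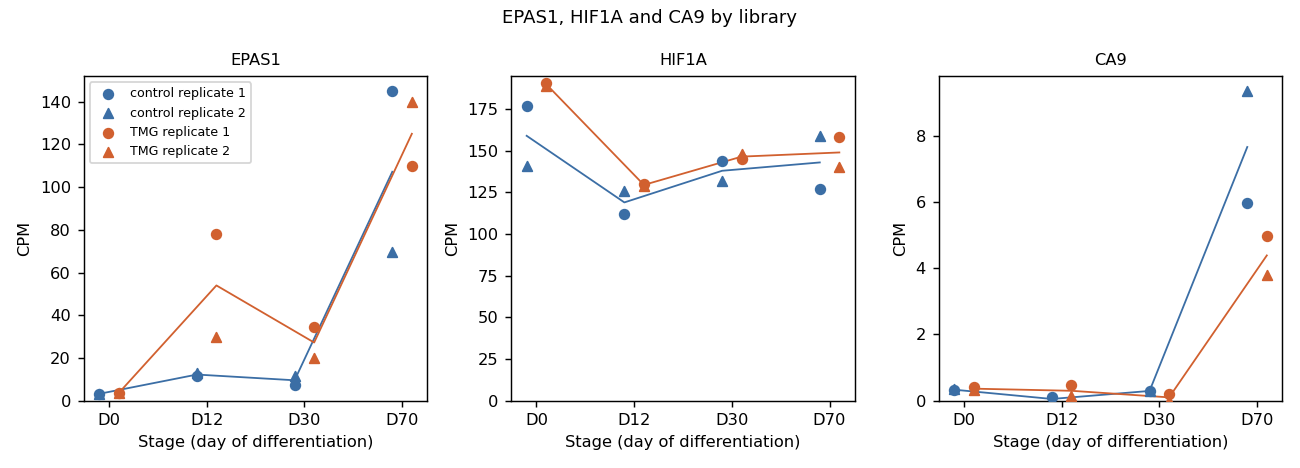
Level in CPM of EPAS1, HIF1A and CA9 by stage in each library; symbols are libraries and lines join the means of 2. EPAS1 stood at 69.4 to 145 CPM on D70 and at 3.03 to 3.71 CPM on D0, CA9 at 3.79 to 9.34 CPM on D70 and at 0.00 to 0.468 CPM before, and HIF1A stayed between 112 and 191 CPM.

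The enzymes shared the direction without passing the test. All 17 had a positive change from D30 to D70, the median was 1.27 against 0.07 over all genes, 14 had an unadjusted p under 0.05, and edgeR called 0. ENO1, the widely expressed enolase, was at 250 and 303 CPM on D30 and 874 and 1040 CPM on D70 (1.79 ± 0.41, edgeR adjusted p = 0.0743). GAPDH was at 457 and 584 CPM and then at 1550 and 1610 CPM (1.60 ± 0.33, edgeR adjusted p = 0.0645). Neither gene overlapped between the stages. LDHA, the lactate dehydrogenase subunit that favours lactate output, was at 36.5 and 47.4 CPM and then at 117 and 311 CPM (2.35 ± 0.61, edgeR adjusted p = 0.0998). DESeq2 called 17 genes up, 9 of them enzymes, against 8.38% of genes in either direction.

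These calls moved with the libraries, and so did the share of all genes called, whose range is given below. They numbered 0 without either D30 control, 1 without D70 control replicate 2 and 5 without D70 control replicate 1. The 2 D70 controls differ in stromal markers, as given above. In the fit of the 13 libraries left after dropping the 3 with the highest stromal sums, 10 genes rose, against 6.71% of genes: the same 5 with GAPDH, HK1, PFKM, PFKP and PFKFB3. In that fit, where the remaining D70 control is assumed to vary like the other groups, the median enzyme change was 1.2 and the median HIF target change 0.72. The pigment epithelium and choroid plexus sum was 10100 CPM in that D70 control and 54.0 and 203 CPM in the D30 controls, and its part in these results was not tested.

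Over the whole course, from D0 to D70 in the controls, the calls lay mostly among the HIF targets. Of these 12, 9 rose, ADM fell and the median was 1.98. Of 17 enzymes 0 rose by edgeR, LDHB fell and the median was 0.32, while 3 were higher at an unadjusted p under 0.05 and DESeq2 called ENO2 and PFKP up. Over all 39 genes 10 rose and 4 fell, 14 in all, against 29.8% of genes tested in either direction. The whole-genome median was 0.03. The stromal sum went from 153 and 163 CPM in the D0 controls to 7330 and 45300 CPM in the D70 controls, and its part in the rise of the HIF targets was not tested.

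NDRG1, a stress-induced gene whose loss causes a neuropathy, stood at 3.65 and 14.5 CPM on D0 and at 46.4 and 241 CPM on D70 (3.98 ± 0.94, edgeR adjusted p = 0.0101). P4HA2, the second collagen prolyl hydroxylase subunit, was at 15 and 7.06 CPM and then at 85.3 and 150 CPM (3.41 ± 0.54, edgeR adjusted p = 0.00129). P4HA1 was at 62.2 and 30.2 CPM and then at 304 and 316 CPM (2.74 ± 0.45, edgeR adjusted p = 0.00167). For these 3 genes the groups did not overlap, although NDRG1 and P4HA2 spread within D70. NDRG1 was at 46.4 and 42.6 CPM in the 2 D70 libraries with the lower stromal sums and at 241 and 211 CPM in the 2 with the higher. P4HA2 was at 85.3 and 71.0 CPM in the former and at 150 and 179 CPM in the latter. P4HA1 was at 304 and 181 CPM against 316 and 196 CPM. VEGFA rose by 2.12 ± 0.34 (edgeR adjusted p = 0.00142) and CA9 by a fitted 4.51 ± 0.78 (edgeR adjusted p = 0.00205), from 5 counts in each D0 control. BNIP3L, EGLN1, KDM3A and ANKRD37, a nuclear ankyrin repeat protein, rose by 1.48 to 1.99. EGLN3, a second HIF prolyl hydroxylase, overlapped between the stages (-1.31 ± 0.53, edgeR adjusted p = 0.0854). BNIP3, another mitophagy receptor, had a change of 1.11 ± 0.46 (edgeR adjusted p = 0.0933). It is uncertain, because 10.4% to 47.5% of the counts of BNIP3 and its 42 named pseudogenes fell on the copies, and with them added the change was 0.75.

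EPAS1 rose from 3.03 and 3.29 to 145 and 69.4 CPM (5.08 ± 0.55, edgeR adjusted p = 0.000222). The astroglial sum went from 66.8 and 41.7 to 245 and 63.5 CPM and the pigment epithelium and choroid plexus sum from 5.31 and 5.46 to 10100 and 1390 CPM, both highest in D70 control replicate 1, where EPAS1 was at 145 CPM. D70 TMG replicate 2 had EPAS1 at 140 CPM, with sums of 99.8 and 3.42 CPM. The endothelial sum went from 169 and 133 CPM, of which KDR was 165 and 126, to 10.4 and 64.1 CPM. The part of these cell types in the rise of EPAS1 was not tested. HIF1A overlapped (-0.15 ± 0.17, edgeR adjusted p = 0.509). LDHB fell by 1.22 ± 0.28 (edgeR adjusted p = 0.00945), from 529 and 505 to 265 and 179 CPM. SLC16A1 fell by 2.00 ± 0.37 (edgeR adjusted p = 0.00296). SLC2A3, the glucose transporter best known from neurons, was at 1060 and 479 CPM on D0 and 156 and 213 CPM on D70 (-2.06 ± 0.67, edgeR adjusted p = 0.0409). That call was lost without D0 control replicate 1 (adjusted p = 0.253) or either D70 control, and 0.812% to 10.9% of its counts fell on named pseudogenes. ADM fell by 2.11 ± 0.46 (edgeR adjusted p = 0.00704). The number of calls stayed between 11 and 15 with any one of the 4 libraries left out. The share of all genes called was below its 29.8% in each of those fits. DESeq2 called 17 genes here, against 35.1% of genes, and 14 from D0 to D12, against 22.6%.

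**Figure D3:**
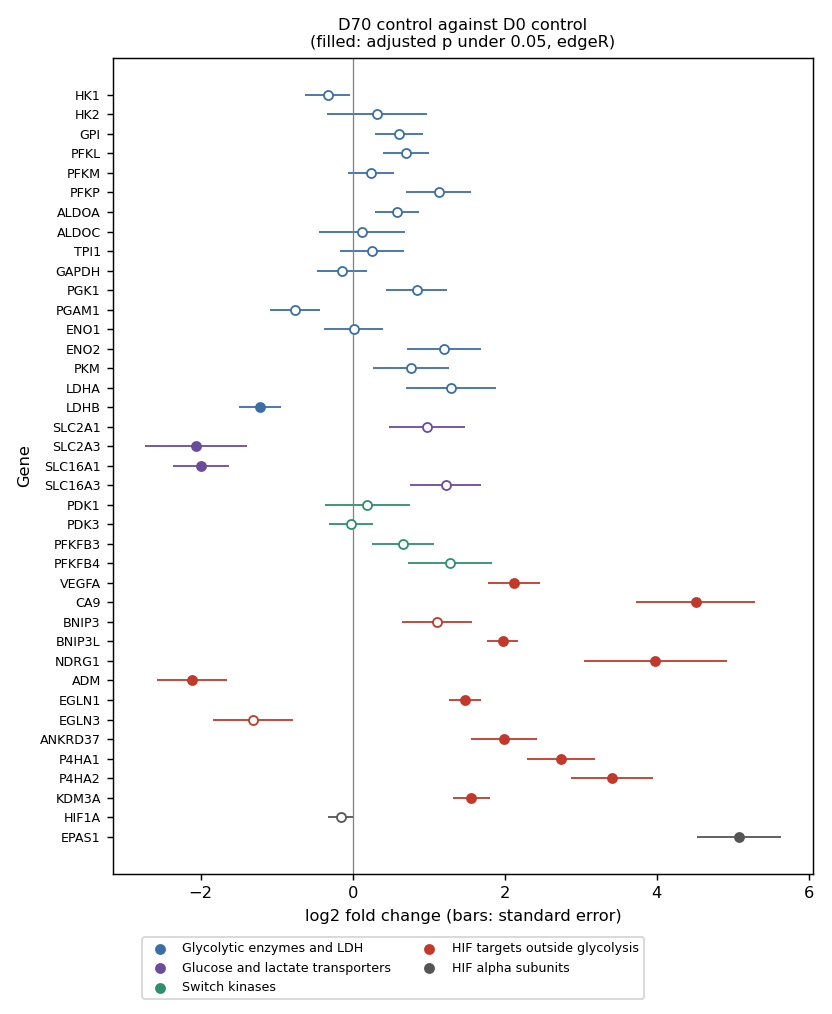
Log2 fold change of each of the 39 genes in D70 against D0 controls (edgeR; bars are standard errors; filled circles have an adjusted p under 0.05), coloured by role. Of 12 HIF targets 9 rose, with changes from 1.48 to 4.51, while 0 of 17 enzymes rose and their changes ran from -1.22 to 1.29.

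In the TMG libraries the same stage comparisons, from the same fit, gave 10 calls from D0 to D12 (16.4% of genes), 0 from D12 to D30 (0.511%), 0 from D30 to D70 (0.00825%) and 13 from D0 to D70 (29.0%). From D0 to D70 with TMG, 7 HIF targets rose, 1 fell and the median was 1.04, and 0 enzymes rose, 2 fell (LDHB and PGAM1) and the median was -0.52. From D12 to D30 with TMG, 6 of 39 genes had an unadjusted p under 0.05, where 3641 of the 24249 genes tested had one, a like share. From D30 to D70 with TMG, 11 genes had an unadjusted p under 0.05, all higher, against 6.45% of genes, and 5 of them were enzymes. EPAS1 rose from D0 to D12 with TMG by 3.93 ± 0.53 (edgeR adjusted p = 0.00149).

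**Figure D4:**
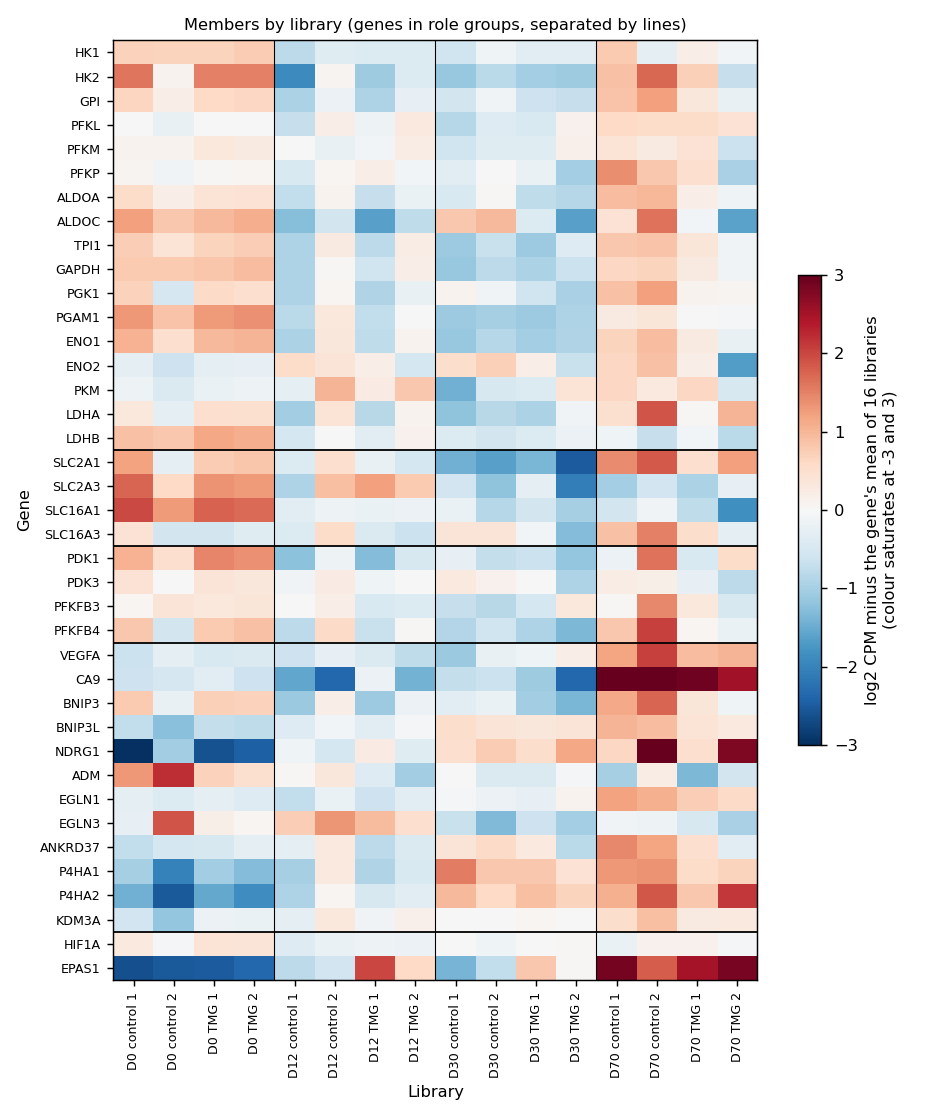
Each of the 39 genes (rows, in role groups) in each of the 16 libraries (columns), as log2 CPM minus the gene's mean over libraries, red high and blue low. CA9 and VEGFA are highest in the 4 D70 libraries, while most enzymes are red on D0, blue on D30 and red again in the D70 controls.

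Isoenzymes of one step can trade places during differentiation, so 8 pairs were followed as log2 ratios over the 4 libraries of a stage (2 control, 2 TMG), each later stage against D0. In 10 of 24 tests the libraries of the 2 stages did not overlap, which gives the smallest p that 4 against 4 allows (exact permutation test, two-sided, p = 0.0286). None passed after Benjamini-Hochberg adjustment (lowest 0.0686), which at this design would have needed 14 tests at the smallest p. ENO2, the neuronal enolase, was at 135, 108, 137 and 140 CPM on D0 and at 239, 270, 190 and 105 CPM on D30. ENO1 went from 777 to 1130 CPM down to 250 to 303 CPM. The log2 ratio of ENO2 to ENO1 was -2.97 ± 0.09 on D0 (SD, n = 4) and -0.56 ± 0.65 on D30, a difference of 2.41 (exact p = 0.0286). On D70 the ratio was -2.13 ± 0.70, a difference from D0 of 0.83 (exact p = 0.143). The ratio of LDHB to LDHA was lower by 2.01 on D70 than on D0 (exact p = 0.0286), and it ran from -0.79 to 1.66 on D70, with both lower values in the replicate 2 libraries, which have the high stromal sums. The difference was -0.96 without the replicate 2 libraries and -3.06 without replicate 1. SLC2A3 to SLC2A1 was lower by 2.55 on D70 (exact p = 0.0286). ALDOC to ALDOA was lower by 1.32 on D12 and PFKM to PFKL by 0.67 on D70 (exact p = 0.0286 for each), the latter with D70 TMG replicate 2 at -2.14 and the other D70 libraries at -1.34 to -1.16. In the controls alone the PFKM to PFKL difference was -0.47, and it was -0.37 without the replicate 2 libraries. PFKL, the liver-type phosphofructokinase, was at 124 to 148 CPM on D0 and at 197 to 221 CPM on D70, and PFKM, the muscle type, at 75.1 to 87.1 and at 44.8 to 94.3 CPM. HK2, the inducible hexokinase, was at 206, 72.1, 192 and 193 CPM on D0 and at 123, 223, 110 and 41.3 CPM on D70. The ratios of HK1 to HK2 and of PFKP to PFKL overlapped with D0 at each later stage. EPAS1 to HIF1A was higher than on D0 at each stage, by 3.30 on D12, 2.47 on D30 and 5.26 on D70 (exact p = 0.0286 for each), and in the controls alone by 2.32, 1.72 and 5.09.

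Hypoxia response elements carry the core letters ACGTG or GCGTG, and some promoters of these genes are shown to let that core be seen. RefSeq promoters of GRCh38.p14, from 250 bases before to 50 after the start, were found for 34 of 39 genes, which have 62 promoters because 12 genes have several starts. On either strand, and leaving out ACGTG within CACGTG (an E-box), a match was in 39 of 62 promoters, against 45.4% of all 35116 promoters of that length. By role it was in 8 of 10 promoters of HIF targets and 21 of 37 of enzymes. No promoter was found for the HIF targets VEGFA, BNIP3L and NDRG1. These are counts of promoters and not of genes, and windows of a gene can overlap and hold the same match, as those of KDM3A do. EGLN3, GAPDH, PGAM1 and P4HA2 had no match in any promoter of theirs, and P4HA2 rose from D0 to D70 (3.41) as P4HA1 did (2.74), which has one. Matches of 5 letters are common by themselves, none is shown to be bound, and no match says only that these letters are not in the window. Capitals mark the matches on either strand. CA9 and EGLN1 rose from D30 to D70 and have ACGTG just before the start, SLC2A1 and EPAS1 rose too and have GCGTG, P4HA1 rose from D0 to D70, and PGK1 has the enzyme promoter with the most matches (4):
CA9: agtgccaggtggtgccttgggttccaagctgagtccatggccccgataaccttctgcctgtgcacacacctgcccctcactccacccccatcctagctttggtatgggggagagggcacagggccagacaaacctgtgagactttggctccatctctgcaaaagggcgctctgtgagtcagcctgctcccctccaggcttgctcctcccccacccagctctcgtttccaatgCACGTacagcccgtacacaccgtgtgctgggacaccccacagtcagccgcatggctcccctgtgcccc
EGLN1: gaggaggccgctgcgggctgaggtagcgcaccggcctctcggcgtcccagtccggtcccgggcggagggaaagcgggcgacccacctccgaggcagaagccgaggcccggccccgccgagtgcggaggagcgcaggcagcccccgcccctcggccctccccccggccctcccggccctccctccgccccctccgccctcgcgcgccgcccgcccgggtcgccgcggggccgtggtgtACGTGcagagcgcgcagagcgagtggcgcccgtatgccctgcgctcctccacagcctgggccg
P4HA1: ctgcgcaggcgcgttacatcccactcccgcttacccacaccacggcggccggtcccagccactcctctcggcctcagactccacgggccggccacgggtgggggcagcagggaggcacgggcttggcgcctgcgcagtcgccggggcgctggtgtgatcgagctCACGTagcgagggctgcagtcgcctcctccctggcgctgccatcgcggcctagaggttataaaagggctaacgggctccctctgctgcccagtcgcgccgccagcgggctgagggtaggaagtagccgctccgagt
SLC2A1: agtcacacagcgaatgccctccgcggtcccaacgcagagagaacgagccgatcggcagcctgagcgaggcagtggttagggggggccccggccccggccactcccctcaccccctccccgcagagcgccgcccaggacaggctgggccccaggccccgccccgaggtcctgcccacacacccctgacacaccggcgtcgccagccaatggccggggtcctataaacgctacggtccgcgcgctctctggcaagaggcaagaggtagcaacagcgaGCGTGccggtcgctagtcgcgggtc
EPAS1: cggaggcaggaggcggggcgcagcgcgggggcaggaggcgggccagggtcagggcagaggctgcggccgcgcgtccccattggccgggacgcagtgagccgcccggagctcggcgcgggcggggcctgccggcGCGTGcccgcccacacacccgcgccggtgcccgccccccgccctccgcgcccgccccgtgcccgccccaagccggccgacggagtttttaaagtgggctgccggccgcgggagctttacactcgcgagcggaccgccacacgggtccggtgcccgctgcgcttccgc
PGK1: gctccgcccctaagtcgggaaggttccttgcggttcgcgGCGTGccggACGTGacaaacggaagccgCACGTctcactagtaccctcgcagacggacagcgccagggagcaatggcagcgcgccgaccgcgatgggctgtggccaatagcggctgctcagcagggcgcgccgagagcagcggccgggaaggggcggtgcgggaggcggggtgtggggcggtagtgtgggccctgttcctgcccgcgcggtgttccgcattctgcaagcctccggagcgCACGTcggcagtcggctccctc
These windows lie at chr9:35673678-35673977 (+ strand), chr1:231422238-231422537 (- strand), chr10:73096817-73097116 (- strand), chr1:42958819-42959118 (- strand), chr2:46297157-46297456 (+ strand) and chrX:78103998-78104297 (+ strand).

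The comparison of TMG with control at each stage asked whether raised O-GlcNAc goes with other levels of these genes. edgeR called 0 of the 39 genes at every stage, and also 0 of all 24249 genes tested. DESeq2 called EPAS1 on D12 and 0 at the other stages, against 0.0206%, 0.0454%, 3.13% and 0.296% of genes on D0, D12, D30 and D70. At an unadjusted p under 0.05 by edgeR there were 2, 2, 2 and 15 genes. The tests of the difference between the TMG effects of consecutive stages called 0 of the 39 genes by edgeR and by DESeq2. By edgeR they called 0 of all genes tested. At an unadjusted p under 0.05 they had 1 gene for D12 against D0 (EPAS1, 1.07% of all genes), 1 for D30 against D12 (CA9, 3.41%) and 2 for D70 against D30 (VEGFA and PFKFB3, 4.03%).

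On D0, KDM3A was at 75.6 and 50.3 CPM in the controls and at 99.8 and 98.0 CPM with TMG (0.65 ± 0.24, unadjusted p = 0.02, edgeR adjusted p = 1.0). ADM was at 38.1 and 72.5 against 24.9 and 21.6 CPM (-1.25 ± 0.45, unadjusted p = 0.0177, edgeR adjusted p = 1.0). These were the 1 higher and 1 lower gene under 0.05, where 0.367% of all genes were higher and 0.895% lower. EGLN3 had the third lowest p (-1.06 ± 0.53, edgeR adjusted p = 1.0), and without control replicate 2 its change was 0.37. All 17 enzymes had changes of 0.00 to 0.47, with control replicate 2 the lowest of the 4 libraries for 15 of them.

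EPAS1 had the lowest p of the 39 genes on D12 and on D30. On D12 it was at 11.3 and 13.1 CPM in the controls and at 78.2 and 29.7 CPM with TMG, so each TMG library lay above both controls. The log2 fold change was 2.14 ± 0.48 (unadjusted p = 0.00101, edgeR adjusted p = 1.0; DESeq2 2.15 ± 0.50, adjusted p = 0.0341). On D30 it was at 7.33 and 11.7 CPM and with TMG at 34.5 and 19.9 CPM (1.5 ± 0.48, unadjusted p = 0.00957, edgeR adjusted p = 0.27). On D70 it overlapped, at 145 and 69.4 against 110 and 140 CPM (0.22 ± 0.46, edgeR adjusted p = 0.969). The difference between its TMG effects on D12 and D0 was 1.98 ± 0.69 (unadjusted p = 0.0155, edgeR adjusted p = 1.0). HIF1A was within 0.26 of the control at each stage. Marker sums of several other cell types also differed between the control and TMG libraries. On D12 the astroglial sum was 12.5 and 17 CPM in the controls against 29.6 and 36.3 CPM with TMG, most of it SLC1A3, while GFAP was lower with TMG (0.983 and 1.37 against 0.312 and 0.435 CPM), and the pigment epithelium and choroid plexus sum was 21.5 and 12.9 against 46.9 and 39.9 CPM. The endothelial sum, mostly KDR, overlapped on D12 (14.8 and 33.0 against 21.7 and 18.1 CPM). In TMG replicate 1, where EPAS1 was highest, CDH5 was the highest of the 4 D12 libraries (5.92 CPM) and TEK the lowest (2.96 CPM). On D30 all 3 sums were higher with TMG without overlap: astroglial 7.24 and 9.08 against 15.3 and 56.1 CPM, pigment epithelium and choroid plexus 54.0 and 203 against 230 and 333 CPM, and endothelial 21.4 and 17.2 against 29.9 and 47.7 CPM. So were the neuronal (569 and 688 against 828 and 1070 CPM), stromal (4340 and 5170 against 5600 and 29800 CPM) and dividing cell sums (279 and 251 against 327 and 625 CPM). Within the D30 TMG libraries EPAS1 was higher in replicate 1 and each of these sums in replicate 2. Within the D12 TMG libraries EPAS1 and the pigment epithelium and choroid plexus sum were higher in replicate 1, and the astroglial sum in replicate 2. The part of these cell types in the EPAS1 values was not tested.

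The other gene under 0.05 on D12 was CA9, with 2 and 0 counts in the controls and 9 and 2 with TMG, too few for a fold change. These 2 genes were higher, where 1.54% of all genes were higher and 0.936% lower. ADM had the third lowest p on D12 (-0.90 ± 0.45, edgeR adjusted p = 1.0). On D30, ALDOC was at 26.2 and 29.3 CPM in the controls and 11.3 and 4.73 CPM with TMG (-1.80 ± 0.59, unadjusted p = 0.0118, edgeR adjusted p = 0.279), and ALDOA, the widely expressed aldolase, had a change of -0.62 ± 0.29 (edgeR adjusted p = 0.436). So 1 gene was higher and 1 lower under 0.05, where 7.1% and 4.89% of all genes were.

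On D70 most of the 39 genes were lower with TMG. None passed the adjusted test (lowest edgeR adjusted p = 0.858), and neither did any of the 24249 genes tested. 35 of 39 had a negative change, the median was -0.71 against -0.01 over all genes tested, and in 26 both TMG libraries lay below both controls, against 12.4% of all genes. Under an unadjusted p of 0.05 there were 15 lower, against 2.88% of genes, and 0 higher, against 2.61%. By role, all 17 enzymes had negative changes, with a median of -0.74, and 11 of 12 HIF targets, with a median of -0.63. All 4 switch kinases and 3 of 4 transporters were negative, and both HIF alpha subunits were positive and overlapped.

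Of the enzymes, ALDOC was at 20.1 and 46.8 CPM in the controls and 14.1 and 4.81 CPM with TMG (-1.82 ± 0.59, unadjusted p = 0.0106). ENO2 was at 252 and 305 against 190 and 51.5 CPM (-1.20 ± 0.49, unadjusted p = 0.0333). PFKP, the platelet-type phosphofructokinase, was at 220 and 147 against 120 and 42.8 CPM (-1.17 ± 0.43, unadjusted p = 0.0197). In each the groups did not overlap and TMG replicate 2 was the lowest. GPI, the phosphoglucose isomerase, was at 379 and 493 against 265 and 179 CPM (-0.97 ± 0.32, unadjusted p = 0.0116). PGK1, the first ATP-making kinase of the pathway, was at 432 and 547 against 252 and 249 CPM (-0.97 ± 0.40, unadjusted p = 0.0358). ALDOA was at 714 and 754 against 434 and 345 CPM (-0.91 ± 0.29, unadjusted p = 0.00979).

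Of the other groups, PFKFB4, which makes the activator fructose 2,6-bisphosphate, was at 37.8 and 90 against 22.4 and 18.9 CPM (-1.63 ± 0.56, unadjusted p = 0.0143). PDK3, which blocks pyruvate dehydrogenase, was at 32.9 and 32.0 against 23.6 and 16.3 CPM (-0.70 ± 0.30, unadjusted p = 0.0382). PFKFB3, the sister of PFKFB4, overlapped, at 59.7 and 158 against 72.2 and 41.8 CPM (-0.93 ± 0.42, unadjusted p = 0.0474), and its change was 0.28 without the 3 libraries of highest stromal sum. The lactate transporters SLC16A3 (-1.06 ± 0.47) and SLC16A1 (-0.88 ± 0.36) had unadjusted p of 0.0479 and 0.0332. BNIP3L was at 216 and 202 against 141 and 130 CPM (-0.63 ± 0.19, unadjusted p = 0.00729), the lowest p of the 39. ANKRD37 was at 13.4 and 11.2 against 6.95 and 3.79 CPM (-1.19 ± 0.42, unadjusted p = 0.016). EGLN1 was at 106 and 95.7 against 76.3 and 68.4 CPM (-0.48 ± 0.21, unadjusted p = 0.0404). BNIP3 had a change of -1.34 ± 0.47 (unadjusted p = 0.0154), and -1.15 with its pseudogenes added. NDRG1 and P4HA2 were not among them, at -0.18 ± 0.82 and 0.09 ± 0.48.

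**Figure D5:**
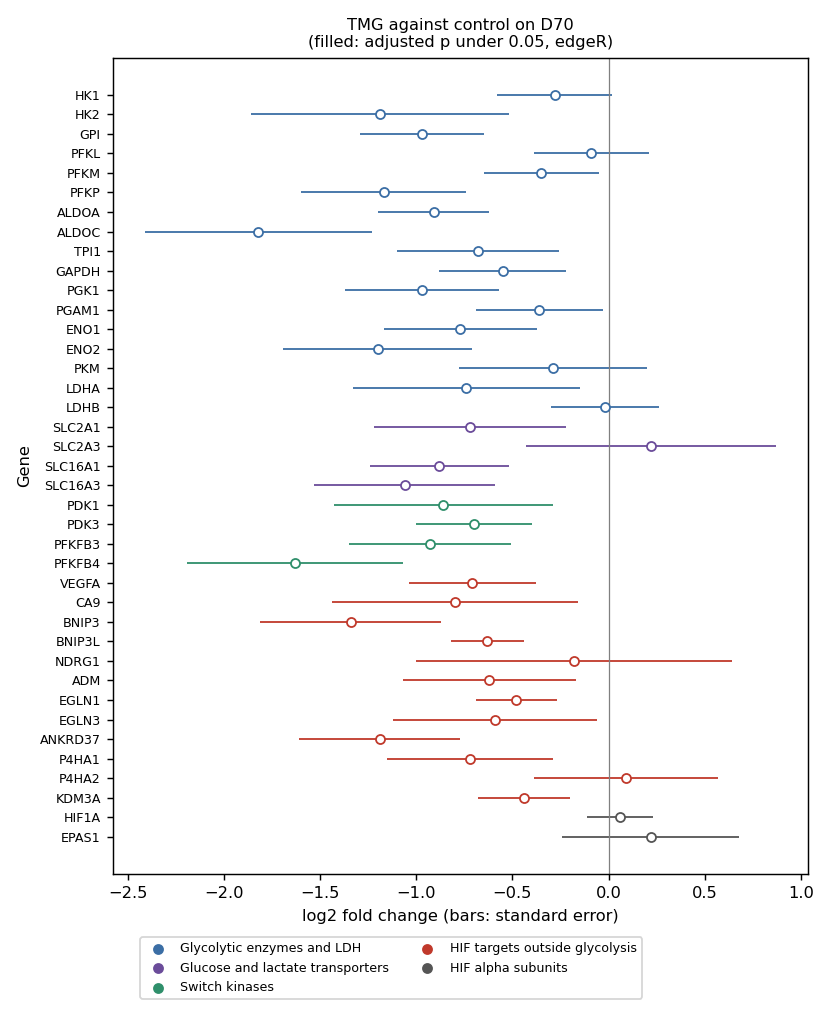
Log2 fold change of each of the 39 genes with TMG against control on D70 (edgeR; bars are standard errors; open circles have an adjusted p of 0.05 or more), coloured by role. 35 of 39 genes lie below 0, among them all 17 enzymes, and 0 pass the adjusted test, where 0 of all genes tested passed.

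The D70 cultures differed in makeup along with this. Between the 2 libraries with low stromal sums (control 7330 CPM, TMG 3680 CPM), 33 of 39 genes were lower with TMG and the median difference in log2 CPM was -0.38. Between the 2 with high sums (45300 and 59600 CPM), 35 of 39 were lower and the median was -0.92. Over all genes tested 51.9% and 50.9% were lower. TMG replicate 2 was the lowest of the 4 libraries for 26 of 39 genes, against 32.5% of all genes, and its pigment epithelium and choroid plexus sum of 3.42 CPM and neuronal sum of 225 CPM were the lowest too. The 15 genes under 0.05 became 1 without TMG replicate 2 (5.66% of all genes) and 5 without control replicate 2 (10.0%). Without the 3 libraries of highest stromal sum they became 2 (7.55% of all genes), in a fit that sets the same low-stroma pair, 1 library against 1, against the spread of the other groups. Without TMG replicate 1, edgeR called PFKP (adjusted p = 0.0235) and ENO2 (adjusted p = 0.0139), with 3.07% of all genes called. The part of cell makeup in the D70 values was not tested.

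Other genes of these pathways gave the setting. Of 38 carbohydrate genes matched in the table (1 further listed name was not matched) 32 were tested, with 26 further HIF targets and 6 genes of the HIF machinery. From D0 to D12 in the controls, 5 carbohydrate genes fell and 0 rose, where 9.71% of all genes fell and 6.97% rose, among them FBP1, the gluconeogenic fructose bisphosphatase, from a mean of 3.32 to 0.175 CPM (-4.16 ± 0.83, edgeR adjusted p = 0.00869), TKT, the transketolase of the pentose phosphate path (-2.26 ± 0.23, edgeR adjusted p = 0.000467), and LDHD, a mitochondrial lactate dehydrogenase (-2.27 ± 0.55, edgeR adjusted p = 0.0198). FBP1 was at only 0.295 and 0.0547 CPM in the D12 controls, so the size of its fitted change is uncertain. Of the further HIF targets 3 rose and 2 fell, among them AK4, an adenylate kinase (-2.34 ± 0.40, edgeR adjusted p = 0.00445). From D12 to D30, 5 further HIF targets rose and 0 fell, where 1.91% of all genes rose, among them LOX, which cross-links collagen (4.52 ± 0.72, edgeR adjusted p = 0.0126), and BHLHE40, a clock-related repressor (2.30 ± 0.40, edgeR adjusted p = 0.016). From D30 to D70, 1 rose, where 0.305% of all genes did: HILPDA, a lipid droplet protein, from a mean of 10.6 to 31.4 CPM (1.57 ± 0.27, edgeR adjusted p = 0.0423).

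From D0 to D70, 10 of the 26 further HIF targets rose and 0 fell, 6 of 32 carbohydrate genes rose and 5 fell, and 3 of 6 machinery genes rose and 1 fell. Of the 24249 genes tested 3649 rose and 3569 fell, so the shares of carbohydrate genes were near those of all genes. BHLHE40 rose by 4.01 ± 0.43 (edgeR adjusted p = 0.000194). LOX rose by 5.66 ± 0.77 (edgeR adjusted p = 0.000577) and moved with the stromal sums, at 90.8 and 78.4 CPM in the D70 libraries with the lower sums, 242 and 237 CPM in those with the higher, and 314 CPM in D30 TMG replicate 2 against 79.4 to 101 CPM in the other D30 libraries. PDK4, a pyruvate dehydrogenase kinase, rose from 0.0618 and 0.629 to 17.4 and 3.38 CPM (4.92 ± 1.17, edgeR adjusted p = 0.0108). With D0 levels this low, the size of that fitted change is uncertain. With TMG on D70, edgeR called 0 of these genes, 22 of 26 further HIF targets had a negative change, against 51.0% of all genes, with a median of -0.52, 9 were lower at an unadjusted p under 0.05, against 2.88% of all genes, and 20 of 32 carbohydrate genes were negative with a median of -0.13. Of those under 0.05, the largest changes after HILPDA were in PPFIA4, a liprin scaffold (-1.51 ± 0.55), ANGPTL4, an inhibitor of lipoprotein lipase (-1.27 ± 0.51), and FAM162A, a mitochondrial protein (-1.08 ± 0.34). HILPDA had the lowest p of these genes, at 23.5 and 39.4 CPM in the controls and 9.64 and 9.99 CPM with TMG (-1.68 ± 0.27, unadjusted p = 7.16e-05, edgeR adjusted p = 0.304).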

How the data were processed

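Total RNA, depleted of ribosomal RNA, was sequenced from 16 cultures of H9 cells. The authors deposited estimated counts per Ensembl gene, made with bowtie2 on hg19 and RSEM v1.2.12 and not normalized; RSEM shares reads between near-identical copies by estimate. The deposited values were whole numbers, so rounding left them as they were. The authors' kit and counting are not stated to use strand.

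Genes with enough counts by filterByExpr (minimum count 10, minimum total 15) were kept, 24249 in all. edgeR 4.0.16 (R 4.3.3, limma 3.58.1) fitted all 8 groups of 2 libraries together with TMM scaling and a quasi-likelihood test, and p-values were adjusted over all genes tested by Benjamini-Hochberg at 5%. Levels are CPM (count per effective library size). Isoenzyme ratios (log2 CPM with a prior count of 2) were compared by exact permutation tests, two-sided. DESeq2 1.42.0, RLE scaling, no filter, a replicate block, smaller fits and leaving out each library were alternatives. Code was tested on simulated data. Totals were 10334908 to 19836878 counts.

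Members and lists were chosen with earlier results of these data known. Statistics are given for called genes (at most 5 per role group, by size of change, in a stage comparison), for genes at an unadjusted p under 0.05 or the lowest 3 in a TMG comparison, for isoenzyme pairs and for at most 5 pathway genes per comparison. Other genes named beside them (ENO1, GAPDH, LDHA, SLC2A1, P4HA1, EGLN3, BNIP3, HIF1A, NDRG1 and P4HA2 where they were not called) were chosen after their values were seen. Gene coordinates are GENCODE v44 lifted to GRCh37; promoters are RefSeq on GRCh38.p14.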

Additional observations from a re-analysis of the deposited data

How the results depend on the processing

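Of the alternatives, 4 were chosen after seeing the data: the TMG arm, the fit without the 3 libraries of highest stromal sum, pseudogene counts added, and the differences within pairs of like stromal sum. The 10 genes called from D0 to D12 became 5 in the control libraries alone (15.4% of all genes) and 1 to 3 with a library left out. The 0 called from D12 to D30 became 5 by DESeq2. The 5 called from D30 to D70 (0.384% of all genes) became 17 by DESeq2 (8.38%), 10 with no filter (0.767%), 10 without the 3 stromal libraries (9.54%), 2 in the controls alone (0.617%) and 0 to 5 with a library left out (0.00% to 0.757%). The 14 from D0 to D70 (29.8% of all genes) ran from 13 to 17 over the alternatives that keep 2 libraries in each group (13.2% to 35.1%). For TMG against control, genes called became 1 by DESeq2 on D12 and 0 to 2 on D70 with a library left out. Genes at an unadjusted p under 0.05 became, on D0, 4 in the stage alone (5.04%) and 0 to 7 with a library left out (0.584% to 3.19%; from 2); on D12, 1 to 4 with a library left out (1.28% to 2.78%; from 2); on D30, 4 by DESeq2 (13% of all genes), 7 in the stage alone (12.5%) and 1 to 6 with a library left out (4.27% to 17.0%; from 2); on D70, 2 without the stromal libraries (7.55%), 5 in the stage alone (0.814%) and 1 to 15 with a library left out (5.66% to 20.5%; from 15). EGLN3 on D0 went from -1.06 to 0.37 without D0 control replicate 2 (lowest value with a library left out -1.73), and PFKFB3 on D70 from -0.93 to 0.28 without the stromal libraries; the cause was not tested.

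Labels do not say that a replicate number marks a shared culture, and the correlations of same-numbered libraries' deviations were 0.0453, 0.367, 0.223 and 0.607 on D0, D12, D30 and D70. Same-numbered libraries thus deviated together from D12 on but hardly on D0, and they were not treated as pairs. With the replicate block, 9, 0, 6 and 13 genes were called in the control stage comparisons, in their order above, against 17.6%, 4.38%, 0.759% and 30.5% of all genes. TMG calls stayed at 0, with 3, 3, 9 and 21 genes at an unadjusted p under 0.05 on D0, D12, D30 and D70, against 2.54%, 6.09%, 20.1% and 12% of all genes.

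Among single genes and ratios, 607 values under an alternative kept direction and side of the threshold, 69 lost the threshold, 3 gained it, 47 values with no test moved and 2 reversed (given above). With 2 cultures a group, a lone library left in a group was assumed to vary like the other groups. CA9 before D70 rests on 0 to 9 counts, so its changes at D12 and D30 were not resolved at this depth.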

Other observations

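In the D30 comparison of TMG with control, edgeR called 0 of the pathway genes outside the 39. At an unadjusted p under 0.05 there were 4 of 32 carbohydrate genes, 3 of 26 further HIF targets and 1 of 6 machinery genes. Of the 24249 genes tested 2908 had such a p, a like share. All of those pathway genes were lower with TMG, where 1186 of all genes were lower and 1722 higher. The values of 3 of the lower pathway genes follow. ENO3, the muscle enolase, was at 16.3 and 20.7 CPM in the controls and at 6.70 and 3.88 CPM with TMG (-1.81 ± 0.40, unadjusted p = 0.000919, edgeR adjusted p = 0.177). MPC1, a subunit of the mitochondrial pyruvate carrier, was at 22.2 and 17.6 against 6.31 and 5.77 CPM (-1.72 ± 0.29, unadjusted p = 0.000114, edgeR adjusted p = 0.145). STC2, a secreted glycoprotein, was at 50.4 and 38.4 against 25.6 and 17.9 CPM (-1.03 ± 0.26, unadjusted p = 0.00255, edgeR adjusted p = 0.209). In all 3 genes both TMG libraries lay below both controls. MPC1 had risen from D12 to D30 in the controls, from a mean of 3.75 to 19.9 CPM (2.40 ± 0.30, edgeR adjusted p = 0.0068). D30 TMG replicate 2 is the library with the high stromal sum at that stage (29800 CPM, against 4340 to 5600 CPM in the other D30 libraries), and its part in these values was not tested.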
